A study of Mus musculus with 6 samples.

Results

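Transcripts for 9 genes that move, take up, release or esterify sterols inside liver cells were followed in mice with and without the receptor gene Gpr146. The genes were Stard4, Tmem97, Rdh11, Npc1, Npc2, Scarb1, Soat2, Lipa and Nceh1, taken from a fixed list of symbols. That list was chosen with earlier results of these data known, so shares over all genes are set beside it as description only. A gene was read from the probe set that the platform annotation assigns to its symbol alone, and where there were 2 such probe sets, from the one with the higher mean over the 6 arrays. On that rule 8 of the 9 genes had a value, among 22180 genes in all, and Soat2, an acyltransferase that makes cholesteryl esters in the liver and intestine, was not analysed here.

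Livers came from 6 male mice of 24 weeks, 1 array each: 3 lacking Gpr146 throughout the body (KO) and 3 wild-type littermates (WT), all on C57BL/6J; the gene encodes a G protein-coupled receptor. Both groups ate chow, were fasted for 16 hours and were then refed for 6 hours before sampling, so every value is from a refed liver. The knockout is not restricted to hepatocytes, and the sources used here do not give the deleted part of the gene. Values are log2 signals of an Affymetrix whole-transcript array, on which a step of 1 is a doubling, and differences are KO minus WT on that log2 scale.

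Cholesterol reaches a liver cell by synthesis or by uptake of lipoproteins, and it is moved between membranes by vesicles and by soluble carriers. Esters taken up in lipoproteins are cleaved in the lysosome, the freed sterol leaves through the NPC1 and NPC2 proteins, and excess sterol is esterified again at the endoplasmic reticulum for storage or secretion. When sterol in that membrane runs low, the transcription factor SREBP2 is released and raises synthesis, uptake and some transport genes, among them Stard4, Tmem97 and Rdh11.

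Gpr146 was at 5.56 to 5.96 in the 3 WT mice and at 3.87 to 4.61 in the 3 KO mice, so the label of every array matched its order (difference -1.47, limma adjusted p = 0.0702, and -0.97 with a pseudocount of 16). Hepatocyte markers were present in every liver, with Alb, the albumin gene, at 11.90 to 11.95, and the 8 hepatocyte markers differed between genotypes by -0.04 to 0.09. Array medians lay between 2.67 and 2.73.

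Stard4 and Rdh11 were lower in KO livers by closely similar amounts, Tmem97 and Npc2 by less, and Scarb1 was the one gene of the set with a higher KO mean whose 95% interval lay clear of 0. None of the 8 genes passed limma's test at an adjusted p of 0.05 over the 11090 genes tested: 0 of 8 were called, in a comparison that called 4 genes in all (0.0361%). At an unadjusted limma p under 0.05, Stard4 and Rdh11 were lower, 2 of 8 against 2.98% of all genes tested, and Scarb1 was higher, 1 of 8 against 6.16%. In Stard4, Rdh11, Tmem97 and Npc2 the KO range ended below the WT range, 4 of 8 genes against 5.16% of all genes tested. No gene of the set had every KO mouse above every WT mouse (0 of 8, against 9.63%). Over the 8 genes 5 differences were negative and 3 positive with a median of -0.15, and over all genes tested 4688 of 11090 were negative with a median of 0.027. In whole liver, fewer cells of a type and less RNA per cell cannot be told apart.

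**Figure D1:**
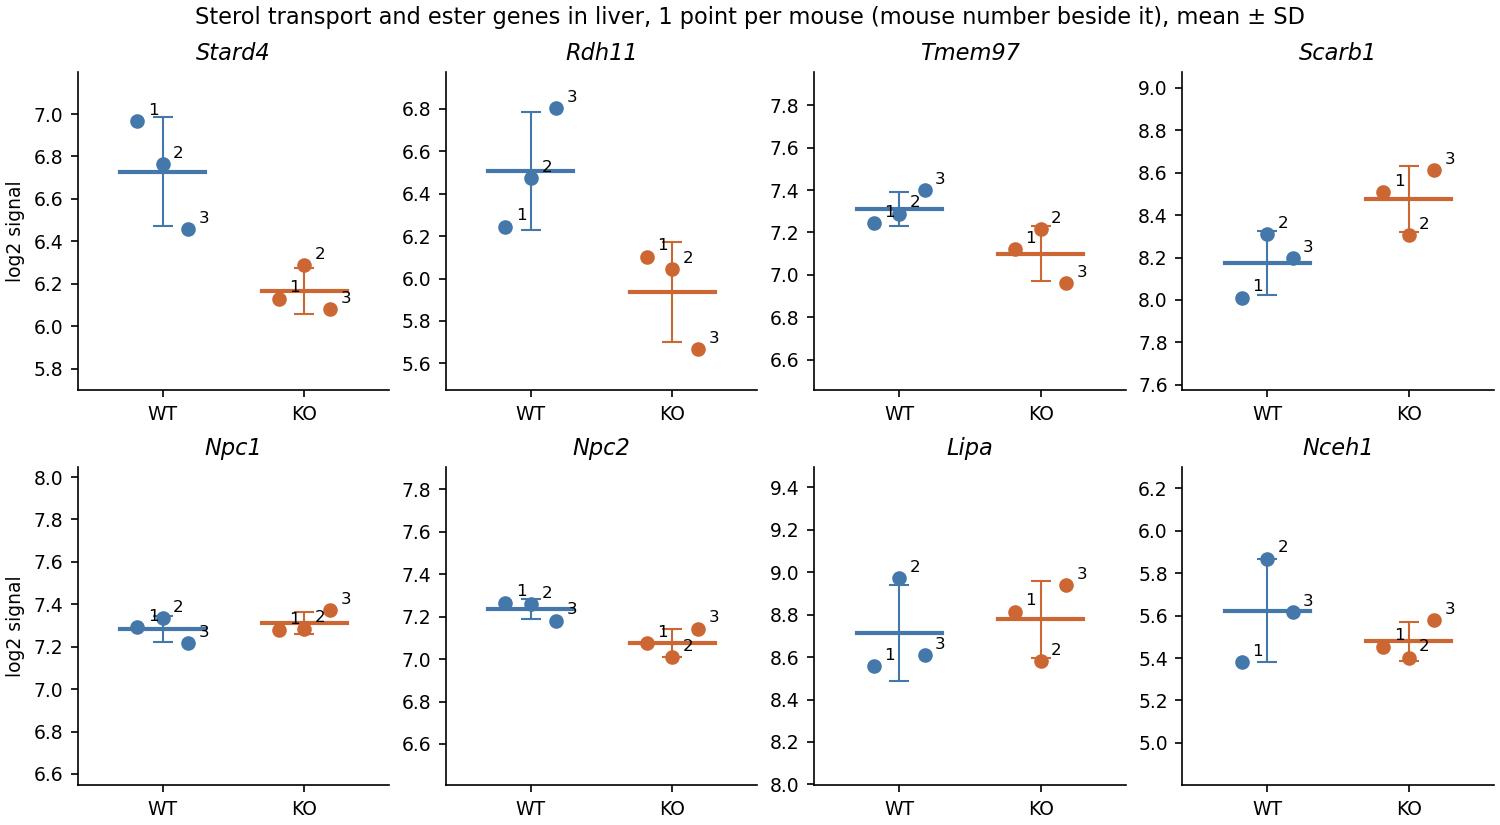
Log2 signal of the 8 measured genes in each mouse, WT in blue and KO in orange, with the mouse number beside each point; the bar is the group mean and the whisker its SD, and every panel spans the same range of log2 units. KO points lie wholly below WT points for Stard4, Rdh11, Tmem97 and Npc2, and the groups overlap for Scarb1, Npc1, Lipa and Nceh1.

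Stard4 encodes a soluble sterol carrier of the cytosol with a START domain, which shuttles cholesterol between the plasma membrane, the recycling compartment and the endoplasmic reticulum. Its log2 signal was 6.97, 6.76 and 6.46 in WT mice 1, 2 and 3 and 6.13, 6.29 and 6.08 in KO mice 1, 2 and 3. The groups did not overlap, and the gap between the lowest WT mouse, mouse 3, and the highest KO mouse, mouse 2, was smaller than the spread among the WT mice. The means were 6.73 ± 0.26 in WT and 6.17 ± 0.11 in KO (SD, n = 3 each). The difference of -0.56 ± 0.14 (SE) is a signal 1.48-fold higher in WT, with a 95% interval of -0.88 to -0.25 and a limma adjusted p of 0.314. Its unadjusted limma p of 0.00298 ranked 104 among the 11090 genes, and 114 genes, Stard4 included, had a difference as low or lower. The exact two-sided permutation p was 0.1, which is the smallest that 3 mice against 3 allow.

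Rdh11 encodes a retinol dehydrogenase of the endoplasmic reticulum. It is in the set as an SREBP2 target, and its enzyme acts on retinoids, not on the transport of sterols. Its signal was 6.25, 6.47 and 6.80 in the WT livers 1 to 3, against 6.10, 6.04 and 5.67 in the KO livers 1 to 3. All KO mice were below all WT mice, with KO mouse 3 the lowest and WT mouse 3 the highest. The difference was -0.57 ± 0.17 (SE), 1.48-fold higher in WT, with a 95% interval of -0.95 to -0.19 and a limma adjusted p of 0.364. Removing WT mouse 3 gave -0.42 and removing KO mouse 3 gave -0.43, the smallest differences with 1 mouse left out.

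Tmem97 encodes a small membrane protein, also known as the sigma-2 receptor, that binds the NPC1 protein and limits its amount. The signal was 7.24, 7.29 and 7.40 in the WT livers 1 to 3, against 7.12, 7.22 and 6.96 in the KO livers 1 to 3. The groups did not overlap, but WT mouse 1 and KO mouse 2 were close to each other. The difference of -0.21 ± 0.10 (SE), 1.16-fold, had a 95% interval of -0.44 to 0.02, which includes 0, and a limma adjusted p of 0.583.

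**Figure D2:**
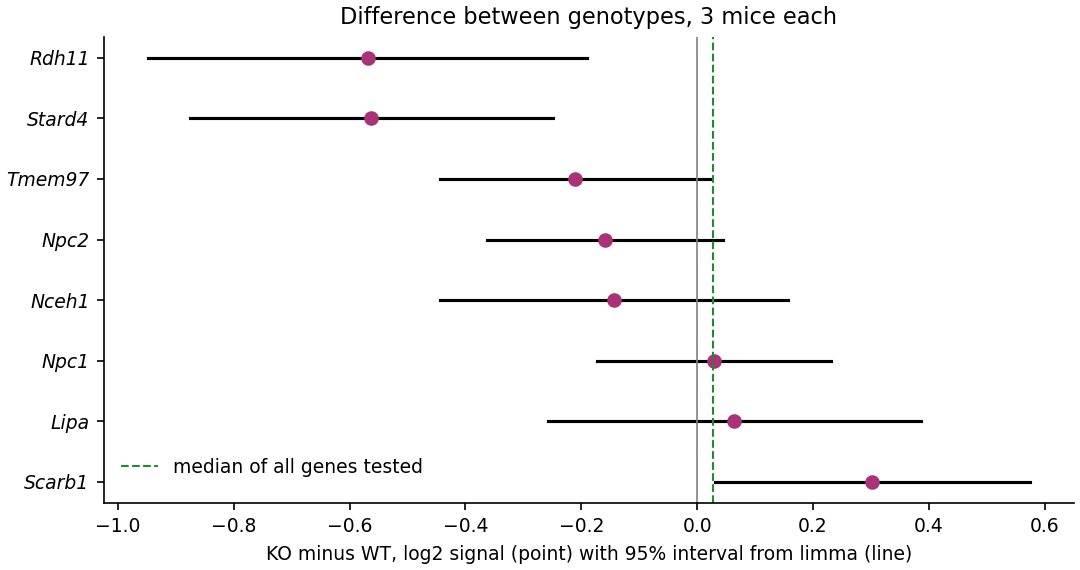
Difference KO minus WT in log2 signal for each of the 8 genes (point) with its 95% interval from limma (line); the grey line marks 0 and the dashed line the median of all genes tested, 0.027. The intervals of Rdh11 and Stard4 lie below 0 and that of Scarb1 above it, and the other 5 include 0.

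Promoter windows, the 250 bases before an annotated start site, were in the RefSeq-derived table (GRCm38.p6) for Tmem97, Rdh11, Npc2, Lipa and Nceh1, with 2 start sites for Rdh11. Windows of the 3 of these genes whose KO and WT values did not overlap are printed 5′ to 3′ on the gene's strand, since SREBP2 acts on its targets together with the factors NF-Y and Sp1, which bind CCAAT and GC boxes. Capitals mark matches, on either strand, to CCAAT (the NF-Y box) or GGGCGG (the GC box); on the other strand these read ATTGG and CCGCCC. The windows are chr11:78550736-78550985 on the minus strand for Tmem97, chr12:84773113-84773362 on the minus strand for Npc2 and chr12:79191856-79192105 on the minus strand for the outer start site of Rdh11.
Tmem97: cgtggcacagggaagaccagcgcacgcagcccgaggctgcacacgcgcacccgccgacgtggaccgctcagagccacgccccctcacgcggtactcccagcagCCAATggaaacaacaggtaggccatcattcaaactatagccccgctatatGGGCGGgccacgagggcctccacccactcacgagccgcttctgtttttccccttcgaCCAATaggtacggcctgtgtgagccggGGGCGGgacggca
Npc2: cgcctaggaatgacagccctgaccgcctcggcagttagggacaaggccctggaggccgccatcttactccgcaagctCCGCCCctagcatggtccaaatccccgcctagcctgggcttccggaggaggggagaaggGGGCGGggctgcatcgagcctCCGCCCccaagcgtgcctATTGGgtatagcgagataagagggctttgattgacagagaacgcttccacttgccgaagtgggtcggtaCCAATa
Rdh11: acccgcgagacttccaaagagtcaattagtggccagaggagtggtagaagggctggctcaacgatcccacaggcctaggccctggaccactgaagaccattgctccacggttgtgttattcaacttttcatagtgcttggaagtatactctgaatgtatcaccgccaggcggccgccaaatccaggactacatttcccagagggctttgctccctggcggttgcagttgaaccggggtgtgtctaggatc

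The Tmem97 window held 2 NF-Y boxes, 147 and 40 bases before the start at their far ends, and 2 GC boxes, with each GC box nearer to the start than an NF-Y box. Npc2, which is better known as a lysosomal gene, held 2 NF-Y boxes and 3 GC boxes. The outer Rdh11 window held none of the motifs searched, and the window before its inner start, which lies within the annotated gene, held 1 NF-Y box 72 bases before that start. Lipa and Nceh1 held 1 NF-Y box each, so 5 of 5 genes with a window had CCAAT, against 37.5% of the 27025 genes in the table. Rdh11 counted only through its inner start. By window and not by gene, 33.8% of all 32851 windows had CCAAT, and the outer Rdh11 window did not. The GC box was in 2 of the 5, against 35.4% of genes. For comparison, CCAAT and GGGCGG were each in 15 of 16 cholesterol synthesis genes. CCAAT was in 21 of 31 other sterol transfer and ester genes and in 11 of 23 lysosomal genes. GGGCGG was in 19 of those 31 and in 15 of those 23. The core of the sterol regulatory element, searched as TCACNCCAC, was in 0 of the 5 genes and in 1.22% of all genes, and also in only 1 of the 16 cholesterol synthesis genes. TCACGTGA, the core of the CLEAR element of lysosomal genes, was in 0 of the 5 and in 5 of 23 lysosomal genes, against 0.907% of all. The LXR response element of DR4 type, searched with no mismatch allowed, was in 0 of the 5 and in 4 of the 27025 genes. It was also in 0 of 8 LXR and sterol efflux genes, so its absence from the 5 says little. All motifs were searched on both strands and no match overlapped another, and a match or its absence describes these letters in this window and not binding.

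**Figure D3:**
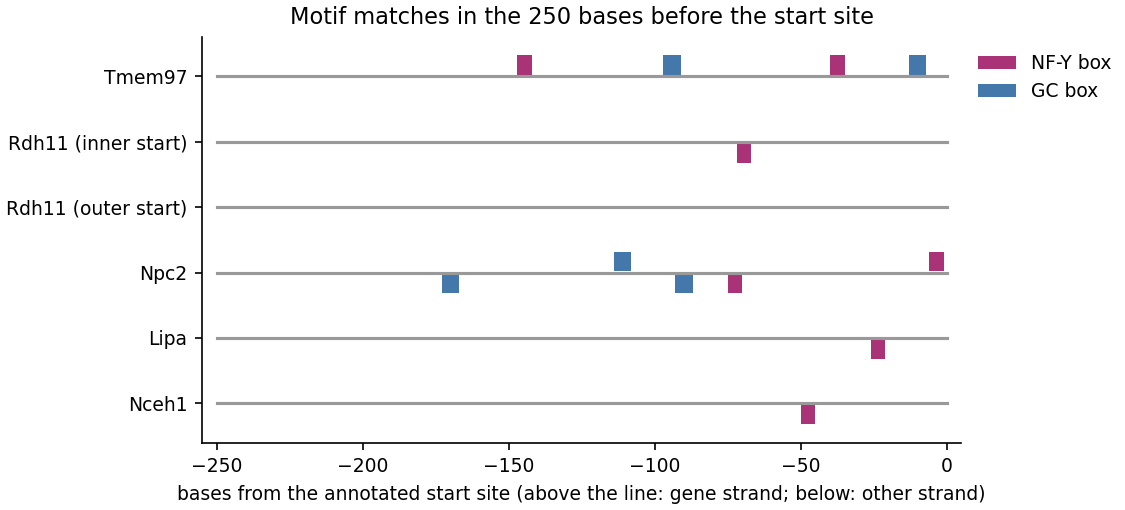
Matches to the NF-Y box (purple) and the GC box (blue) in the 250 bases before each annotated start site of 5 genes, drawn to scale, above the line on the gene's strand and below it on the other strand. Tmem97 has 4 matches and Npc2 has 5, and the outer Rdh11 window has none.

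Scarb1 encodes the HDL receptor SR-BI, which takes cholesteryl esters out of HDL into the hepatocyte. The signal was 8.01, 8.31 and 8.20 in the WT livers 1 to 3, against 8.51, 8.30 and 8.61 in the KO livers 1 to 3. The groups overlapped by a narrow margin, since KO mouse 2 lay just below WT mouse 2, and the other KO mice were above every WT mouse. KO exceeded WT by 0.30 ± 0.12 (SE), or 1.23-fold, with a 95% interval of 0.03 to 0.57. The limma adjusted p was 0.508 and the unadjusted p 0.0331, and the exact two-sided permutation p was 0.2. The unadjusted p was above 0.05 after median centring (0.0522), with array weights (0.0525) and when mouse 1 or 3 of either genotype was left out (0.0562 to 0.114). Sinusoidal endothelial cells express Scarb1 as well: the median of their 10 markers was 5.76 to 6.15 in WT and 5.79 to 5.97 in KO livers, with 0 of 10 markers separating the groups.

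The lysosomal genes of the set differed by less than Stard4 and Rdh11 did. Npc1 encodes the membrane protein that passes cholesterol out of the lysosome. Its signal was 7.29, 7.34 and 7.22 in the WT livers 1 to 3, against 7.28, 7.28 and 7.37 in the KO livers 1 to 3. These 6 livers were close together, and the groups overlapped. The difference was 0.03 ± 0.09 (SE), with a limma adjusted p of 0.945. Its 95% interval of -0.17 to 0.23 spans KO signals from 0.887 to 1.17 times the WT signal. The value turned to -0.0032 when WT mouse 3 was left out and to -0.00096 for KO mouse 3. A second Npc1 probe set was near the bottom of the scale, at 1.79 to 1.93 in WT and 1.89 to 1.92 in KO, and was not used.

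Npc2 encodes the soluble lysosomal partner that hands cholesterol to NPC1. The signal was 7.27, 7.26 and 7.18 in the WT livers 1 to 3, against 7.08, 7.01 and 7.14 in the KO livers 1 to 3. All KO mice lay below all WT mice, within a narrow range. The difference of -0.16 ± 0.09 (SE), 1.12-fold, had a 95% interval of -0.36 to 0.04 and a limma adjusted p of 0.631. Npc1 and Npc2 thus had differences of opposite sign, and whether the genes differ from each other was not tested.

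Lipa encodes lysosomal acid lipase, which cleaves the esters and triglycerides of incoming lipoproteins. Its signal was 8.56, 8.97 and 8.61 in the WT livers 1 to 3, against 8.81, 8.58 and 8.94 in the KO livers 1 to 3. High and low livers were found in both groups. The difference was 0.06 ± 0.14 (SE), with a 95% interval of -0.26 to 0.39 and a limma adjusted p of 0.927. Leaving out WT mouse 2 gave 0.19 and leaving out KO mouse 2 gave 0.16. The value came to 0.01 with WT mouse 3 removed, to -0.01 with WT mouse 1 removed and to -0.02 with KO mouse 3 removed.

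Macrophages carry much Lipa and Npc2, so the 12 Kupffer cell and macrophage markers are given beside them. The median marker level was 6.12, 5.57 and 5.45 in the WT livers 1 to 3, against 5.48, 5.67 and 6.08 in the KO livers 1 to 3. WT mouse 1 and KO mouse 3 were therefore the high livers, and 0 of 12 markers separated the genotypes. The KO mean was higher for 10 of the 12 markers, with a median difference of 0.13 against 0.027 over all genes tested. Clec4f, a Kupffer cell lectin, was at 6.64, 6.32 and 6.41 in WT and 6.55, 6.52 and 6.98 in KO mice 1 to 3. Lipa was at the lowest WT value in WT mouse 1 and at the highest KO value in KO mouse 3. Npc2 had its highest WT value in WT mouse 1 and its highest KO value in KO mouse 3. The part of these cells in the values was not tested. Of the 7 neutrophil and monocyte markers, 0 reached the mean signal of 2.99 needed for testing.

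Nceh1 encodes a neutral cholesterol ester hydrolase of the endoplasmic reticulum that frees cholesterol from stored esters. The signal was 5.38, 5.87 and 5.62 in the WT livers 1 to 3, against 5.45, 5.40 and 5.58 in the KO livers 1 to 3. The KO mice lay inside the WT range. The difference was -0.14 ± 0.13 (SE), with a 95% interval of -0.44 to 0.16 and a limma adjusted p of 0.782. This value followed single WT mice: removing mouse 1 gave -0.26 and removing mouse 2 gave -0.02. A second Nceh1 probe set, not used, was at 1.99 to 2.41 in WT and 1.92 to 2.05 in KO mice.

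The 3 SREBP2 targets shared the low KO values but not the order of the WT mice. Among WT livers Stard4 was highest in mouse 1 and lowest in mouse 3, whereas Rdh11 and Tmem97 were lowest in mouse 1 and highest in mouse 3. Among KO livers all 3 genes were lowest in mouse 3. The 17 cholesterol synthesis genes tested had a median of -0.06, -0.01 and 0.07 relative to their WT means in WT mice 1 to 3. In KO mice 1 to 3 that median was -0.38, -0.28 and -0.90. Their order of mice was thus that of Tmem97 in all 6 livers, and Rdh11 differed from it in that KO mouse 2 lay below KO mouse 1.

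**Figure D4:**
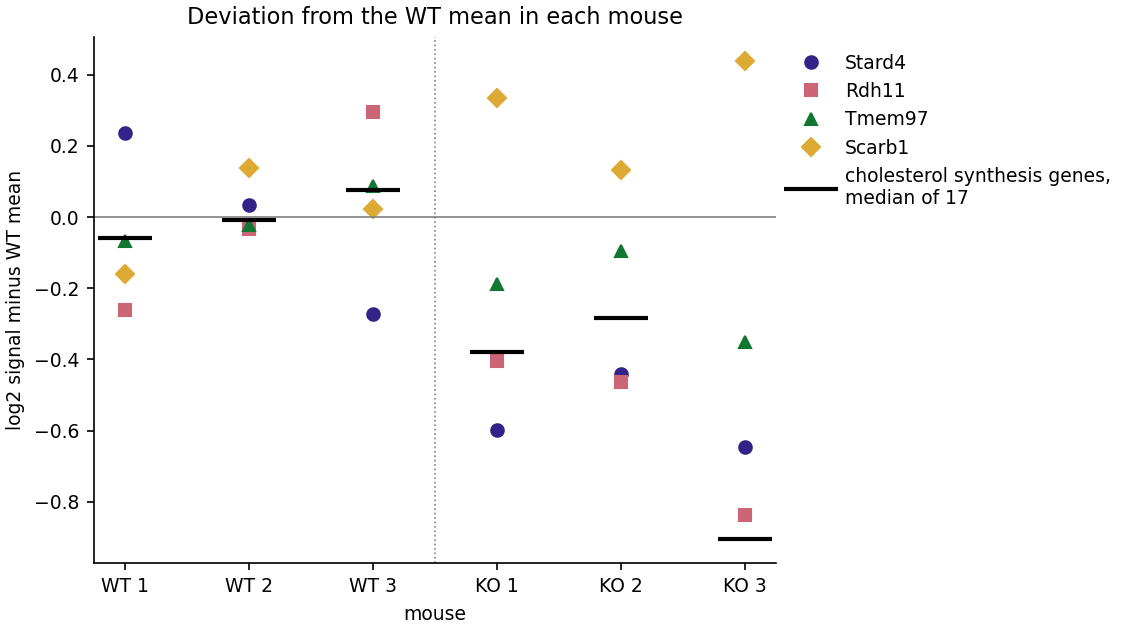
Log2 signal minus the WT mean of the same gene in each of the 6 mice, for Stard4, Rdh11, Tmem97 and Scarb1 (points) and as the median over 17 cholesterol synthesis genes (bars). Stard4, Rdh11 and Tmem97 lie below 0 in all KO mice and are lowest in KO mouse 3, where the synthesis median is -0.90, while Scarb1 lies above 0 in all KO mice.

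The genes outside the set nearest to each SREBP2 target were found by the root mean square difference over the 6 mice, after each gene was centred on its mean. Rdh11 was nearest to Cyp51, the lanosterol demethylase, at 0.08 log2 units, then to Maged2 at 0.11 and to Nsdhl, a sterol dehydrogenase, at 0.11. Cyp51 was at 8.01, 7.99 and 8.35 in WT and 7.74, 7.69 and 7.29 in KO mice 1 to 3. Tmem97 was nearest to Mmab, an enzyme of cobalamin metabolism, then to Scoc and Hlx, each at 0.04. Stard4 was nearest to Arc, an immediate early gene, Plpp3, a lipid phosphatase, and Defb15, each at 0.11. Arc was at 4.31, 4.34 and 3.82 in WT and 3.67, 3.70 and 3.33 in KO mice 1 to 3, with WT mouse 3 the lowest of its group, like Stard4. Several of these neighbours had low signals. With a pseudocount of 16 the difference of Arc went from -0.59 to -0.28 and that of Defb15 from -0.58 to -0.22. Maged2 went from -0.48 to -0.24 and Scoc from -0.21 to -0.09, while Stard4 went from -0.56 to -0.48. These likenesses rest on 6 livers that share 1 comparison and are descriptions.

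A wider list held other sterol carriers, oxysterol-binding proteins, Aster proteins and ester hydrolases. Of its 38 genes 35 had a probe set and 28 were tested, with 0 called by limma and a median difference of 0.026. At an unadjusted limma p under 0.05, 0 were lower and 1 was higher, against 2.98% and 6.16% of all genes tested. The groups did not overlap in 2 of the 28, both higher in KO, against 9.63% of all genes tested. Stard5, a further START-domain sterol carrier, was at 6.71, 6.78 and 7.00 in WT and 7.08, 7.25 and 7.14 in KO mice 1 to 3. Every KO mouse was above every WT mouse there, the reverse of Stard4, with a difference of 0.33 ± 0.11 (SE; limma adjusted p = 0.419). Osbpl8, an oxysterol-binding protein of the endoplasmic reticulum, was the other gene of the list without overlap, at 7.13, 7.278 and 7.25 in WT and 7.38, 7.282 and 7.37 in KO mice, a difference of 0.12 ± 0.09 (limma adjusted p = 0.717) that was 0.08 without WT mouse 1. The most negative value belonged to Cd36, a fatty acid and lipoprotein receptor named after its value was seen, at -0.53 ± 0.24, with overlapping groups. Scp2, the abundant sterol carrier of peroxisomes, and Scarb2, a lysosomal relative of Scarb1, were at 0.04 and 0.02.

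**Figure D5:**
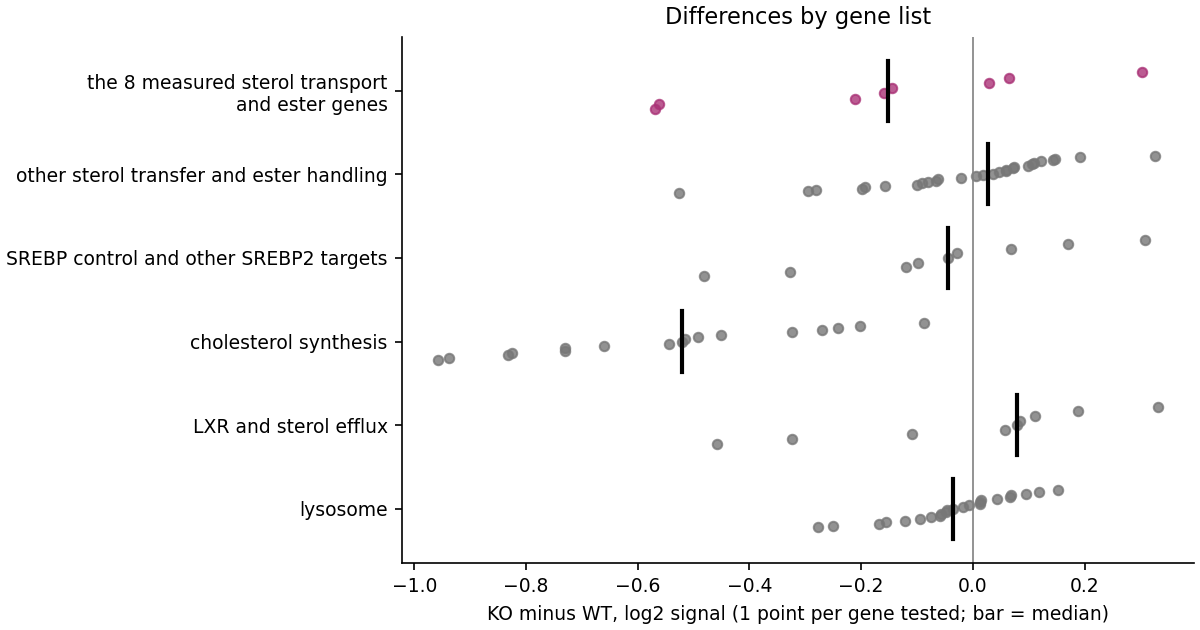
KO minus WT in log2 signal, 1 point per gene tested, for the 8 sterol transport and ester genes and 5 related lists; the black bar is the list's median. The median is -0.15 for the 8 genes, -0.52 for cholesterol synthesis and between -0.044 and 0.078 for the other 4 lists.

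Set beside related gene groups, the values of Stard4 and Rdh11 lay within the range of the cholesterol synthesis genes, and those of the lysosomal members did not reach its median. Of the 17 synthesis genes 13 were lower at an unadjusted limma p under 0.05 and 12 had no overlap, against 2.98% and 5.16% of all genes tested. Their median was -0.52, in a range of -0.96 to -0.09. Pmvk, Hsd17b7, Lss and Msmo1, which had the smallest p-values there, were at -0.73, -0.96, -0.66 and -0.83. Without KO mouse 3 Msmo1 was at -0.54. Among 9 genes of SREBP control and other targets the median was -0.044, and 2 were lower at an unadjusted p under 0.05, against the same 2.98%. Aacs, which activates acetoacetate, was the 1 of 9 without overlap, against 5.16%, at -0.33 ± 0.12 (SE, limma adjusted p = 0.446).

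LXR, the receptor for oxysterols, raises efflux genes when sterol is plentiful. Of its 9 genes tested, 1 was higher at an unadjusted p under 0.05, against 6.16% of all genes tested, and the median was 0.078. The groups did not overlap in 2 of the 9, both higher in KO, against 9.63% of all genes tested. Differences were positive for 6 genes and negative for 3, in a range of -0.46 to 0.33. The most negative were Pltp at -0.46 and Cyp7a1 at -0.32, with overlapping groups and named after their values were seen. Apoe, which encodes an apolipoprotein, was at 7.84, 7.69 and 7.80 in WT and 8.07, 8.09 and 8.16 in KO mice 1 to 3 (difference 0.33 ± 0.09 SE, limma adjusted p = 0.347). Abcg5, a gene of biliary sterol export, did not overlap either, at 0.08 ± 0.09, and at 0.04 without KO mouse 3. Its highest WT mouse was at 6.81 and its lowest KO mouse at 6.82. Abcg8, from the same list and named after its value was seen, was at 0.19 ± 0.11 with overlapping groups. Of 23 lysosomal genes tested, 0 were called by limma, 0 had an unadjusted p under 0.05 and 0 separated the genotypes. Their differences ran from -0.28 to 0.15 with a median of -0.035, and the lowest p-values belonged to Gla, alpha-galactosidase, at -0.28 ± 0.14 and Ctsl, cathepsin L, at -0.15 ± 0.10. Gla was at -0.17 without KO mouse 1, at -0.44 without KO mouse 3 and at -0.11 with a pseudocount of 16. The differences of Npc1, Npc2 and Lipa lay inside the range of the 23 genes. Whether the 8 genes differ as a set from any of these lists was not tested.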

How the data were processed

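Per the labels' protocols, total RNA was extracted with Trizol and biotin-labelled cRNA was hybridised to Affymetrix whole-transcript arrays. The authors deposited log2 values for 41345 probe sets in 6 columns, all matched to a mouse; the summary method, normalization and array build were not stated (not given in the sources used here), and the log2 scale was read from the range. Probe sets with several symbols (1814) or none listed (16010) were left out, and symbols were updated through Entrez numbers (23328 of 23521 matched). Testing covered the 50% of genes with the highest mean (11090, from 2.99 up), KO against WT, with limma 3.58.1 (R 4.3.3; lmFit, eBayes, two-sided) and Benjamini-Hochberg adjustment at 0.05. Single genes were also compared by an exact permutation test. Precision rests on few mice, with a median standard error of 0.11. The fit was tested on simulated data. Members, gene lists and motifs were chosen with earlier results of these data known. All members are named; from each other list, genes past the threshold and up to 4 of smallest p without overlap, or otherwise the 2 of smallest p. Genes shown as markers or without overlap beyond this were named after their values were seen. Promoter windows are RefSeq's; 20 of 20 miRNA hairpins inside such windows read the same in both tables.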

Additional observations from a re-analysis of the deposited data

How the results depend on the processing

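In 15 alternatives, 0 of the 8 genes were called in each, and the differences of Stard4, Rdh11, Tmem97, Npc2, Scarb1 and Nceh1 kept their sign; Npc1 and Lipa ran from -0.0032 to 0.056 and from -0.017 to 0.19 with a mouse left out. Limma's adjusted p ran from 0.0718 to 0.571 for Stard4 and from 0.311 to 0.684 for Rdh11, and the lowest for Stard4 came without WT mouse 3. The median over the 8 genes ran from -0.19 to -0.08. With a pseudocount of 16, 4 genes were lower at an unadjusted p under 0.05, Tmem97 and Npc2 in addition to Stard4 and Rdh11, beside 343 of all 11090 genes. Scarb1 left the count of higher genes, making it 0, after median centring and with array weights; with a mouse left out that count was 0 or 1, and the count of higher genes without overlap was 0 or 1 (1 without WT mouse 2 or KO mouse 2). Over all genes, 4 calls became 0 in the upper 25% of signal, 1 with the pseudocount, 1 with the replicate block, and 1 to 51 with a mouse left out (51 without WT mouse 3). Quantile normalization turned the balance at an unadjusted p under 0.05 from 330 lower and 683 higher to 584 and 494, and moved the median of all genes to -0.0098. The cause of these shifts was not tested. Deviations of same-numbered mice from their group means had correlations of 0.0551, -0.187 and 0.147, inside the range of the other pairs, -0.268 to 0.241. With 3 mice per group these values cannot decide whether the numbers are a pairing. With the replicate block, Stard4 had a limma adjusted p of 0.271. Precision is limited by 3 mice per group.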
